A study of Mus musculus with 6 samples.

Results

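The genes that make, take up, move and export cholesterol were examined in the abdominal white adipose tissue (WAT) of female hNAG-1 mice, which carry human NAG-1 (also called GDF15, a secreted member of the TGF-β superfamily) as a transgene, and of wild-type (WT) mice. The set was a fixed list of 33 genes, of 21057 genes tested: 20 genes of cholesterol synthesis, the regulator Srebf2, and 12 genes of uptake, trafficking and efflux. All 33 were found among the named probes of the array by symbol, 1 of them (Lipa) by an older symbol, and every one of their 33 main probes was well above background on all 6 arrays. All mice were C57/BL6 females of 30 wk, and the transgene was the labelled difference between the groups. Abdominal fat RNA of 6 mice per genotype was combined in pools of 2 mice, so each genotype had 3 single-colour Agilent arrays. The spread between replicates is therefore a spread between pools, and in the hNAG-1 group also between the 2 slides described below. The transgenic mice came from a single line, in which the transgene is expressed in most tissues and strongly in WAT. Their diet at this age was not given in the sources used here. The mouse Gdf15 probe was at log2 levels, relative to the 75th percentile of each array, of -2.16, -2.31 and -3.32 in the WT arrays and -3.76, -3.34 and -3.14 in the hNAG-1 arrays, and the human transgene itself was not measured on this mouse array, so it could not serve as a check of the labels.

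Cholesterol is built from acetyl-CoA. The mevalonate steps give isoprenoid units, these are joined to farnesyl pyrophosphate and squalene, and squalene is closed to lanosterol and trimmed to cholesterol. SREBP-2, the product of Srebf2, switches these genes on when cell sterol is low, together with partners such as NF-Y, which binds CCAAT boxes. White fat cells keep a large store of cholesterol, much of it taken up from lipoproteins, and they pass it to HDL through transporters such as ABCA1 and ABCG1.

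The stretches before the gene start are shown for 7 synthesis genes, because these genes are read against the sequences that SREBP-2 and NF-Y are known for. RefSeq promoters (assembly GRCm38.p6, 250 bases before to 50 bases after the start) were found for 26 of the 33 genes. Each stretch ends at the base before the start and is written on the gene's own strand, and capitals mark the letters TCACNCCAC (a form of the sterol regulatory element) or CCAAT, on either strand.
Hmgcs1 (chr13:119690151-119690350, plus strand): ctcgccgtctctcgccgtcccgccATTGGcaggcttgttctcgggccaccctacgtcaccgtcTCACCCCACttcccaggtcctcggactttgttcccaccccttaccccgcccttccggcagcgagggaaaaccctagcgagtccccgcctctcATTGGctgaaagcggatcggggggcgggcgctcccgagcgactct
Mvd (chr8:122443423-122443522, minus strand): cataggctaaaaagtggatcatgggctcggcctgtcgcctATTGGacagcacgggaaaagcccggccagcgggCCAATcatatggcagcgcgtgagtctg
Lss (chr10:76531505-76531604, plus strand): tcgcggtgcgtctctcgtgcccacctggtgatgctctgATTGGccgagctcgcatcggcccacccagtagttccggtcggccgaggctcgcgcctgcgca
Cyp51 (chr5:4104698-4104797, minus strand): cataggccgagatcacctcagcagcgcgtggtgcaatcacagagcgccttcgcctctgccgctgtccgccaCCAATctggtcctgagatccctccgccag
Sc5d (chr9:42264301-42264400, minus strand): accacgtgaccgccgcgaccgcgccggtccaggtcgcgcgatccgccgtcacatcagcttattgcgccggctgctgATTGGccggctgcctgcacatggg
Idi1 (chr13:8885506-8885605, plus strand): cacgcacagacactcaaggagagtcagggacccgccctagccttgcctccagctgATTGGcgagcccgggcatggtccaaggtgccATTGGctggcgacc
Acat2 (chr17:12960726-12960825, minus strand): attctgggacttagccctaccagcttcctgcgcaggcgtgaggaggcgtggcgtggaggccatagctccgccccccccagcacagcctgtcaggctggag

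Hmgcs1, whose product makes HMG-CoA, was shown because it alone among the synthesis genes in the table held the sterol regulatory element letters, 137 bases before the start. The 5 genes Mvd, Lss, Cyp51, Sc5d and Idi1 were shown because each had a CCAAT box and a higher level in hNAG-1 mice, and Acat2 because it was higher without either set of letters in this window. CCAAT, in either orientation, was in a promoter of 16 of the 17 synthesis genes in the table and of 23 of the 26 genes in all, against 41.1% of all 27025 genes in the table. Among the synthesis genes it was in 11 of the 12 that were higher in hNAG-1 mice at an unadjusted p below 0.05 and in 5 of the 5 that were not. With the box in 16 of the 17, it could not have separated these groups. TCACNCCAC was in 2 of the 26, Hmgcs1 and Stard3, against 1.44% of all genes. TCACNTG, an E-box form that SREBPs can also bind, was in 3 of the 26 (Pmvk, Hsd17b7 and Sc5d), against 18.6% of all genes. Of the DR4 repeat that LXR is known to bind, only the perfect form was searched. That form was in 0 of the 26 and in 0.0148% of all genes. Imperfect forms were not searched and may be present. No promoter was found for Abcg1, Fdps, Sqle, Fdft1, Scarb1, Npc1 and Stard4, so these 7 genes were not searched for any motif. No 2 of these motifs overlapped in the printed stretches. A match is a description of letters and not of binding, and a missing match says nothing about the factor.

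**Figure D1:**
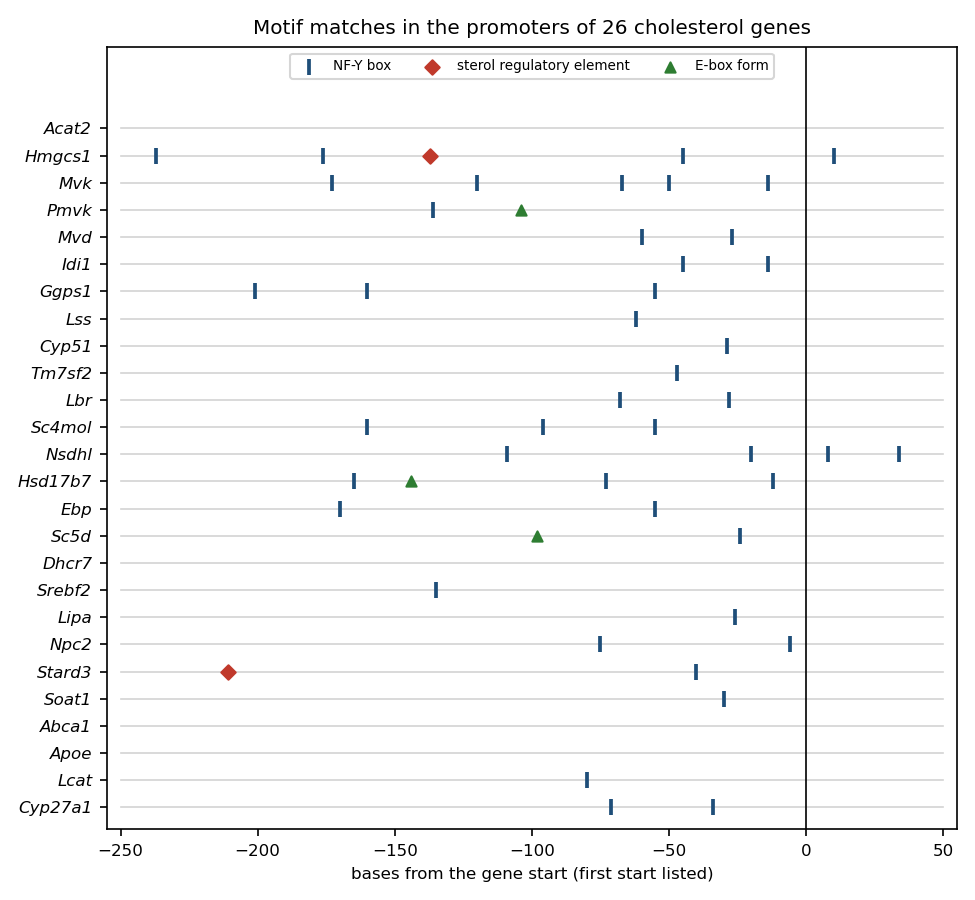
Positions of motif matches in the promoters of the 26 genes with a RefSeq promoter, first start listed for each gene. The horizontal axis gives bases from the gene start, the vertical line marks the start, blue bars are NF-Y boxes on either strand, red diamonds the sterol regulatory element letters and green triangles the E-box form. Most rows of synthesis genes, in the upper part, carry a blue bar, and the 2 red diamonds lie in Hmgcs1 and Stard3.

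Cholesterol synthesis genes were higher in hNAG-1 mice along most of the pathway, while 0 genes of lysosomal release and transfer passed the test. Of the genes of efflux and removal, Abcg1 and Apoe were lower. Values are on the log2 scale, and 0 is the 75th percentile of an array's probes. The test was limma's moderated test over all 21057 genes, and a gene was counted as higher or lower at an unadjusted p below 0.05. By this rule 16 of the 33 genes were higher in hNAG-1 mice, where 8.46% of all genes were, and 2 of the 33 were lower, where 4.08% of all genes were. The 3 hNAG-1 arrays lay above the 3 WT arrays for 17 of the 33 genes, against 13.7% of all genes, and below them for 3, against 6.57%. Both lower counts are near the shares of all genes, so Abcg1 and Apoe are described singly and not as a result about the set. Of the 20 synthesis genes 15 were higher and 0 lower, and of the 12 genes of uptake, trafficking and efflux 1 was higher and 2 were lower. The median log2 fold change of the synthesis genes was 1.07, that of the uptake, trafficking and efflux genes was -0.02, and that of all genes was 0.063. The log2 fold change of 14 of the 20 synthesis genes lay above the 95th percentile of all genes, which was 0.74.

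After Benjamini-Hochberg adjustment over all 21057 genes, limma left 0 genes (0% of all) below 0.05, and the lowest adjusted p of any gene was 0.167. With a variance model that follows intensity and is robust to outliers, limma gave 130 genes below 0.05 after adjustment, 107 higher (0.508% of all genes) and 23 lower (0.109%). Of the 33 cholesterol genes 9 were among the higher (Acat2, Pmvk, Mvd, Idi1, Fdps, Fdft1, Sqle, Cyp51 and Tm7sf2) and 1 among the lower (Abcg1). The p-values given below are limma p-values adjusted over all genes, while "threshold" means the unadjusted 0.05.

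**Figure D2:**
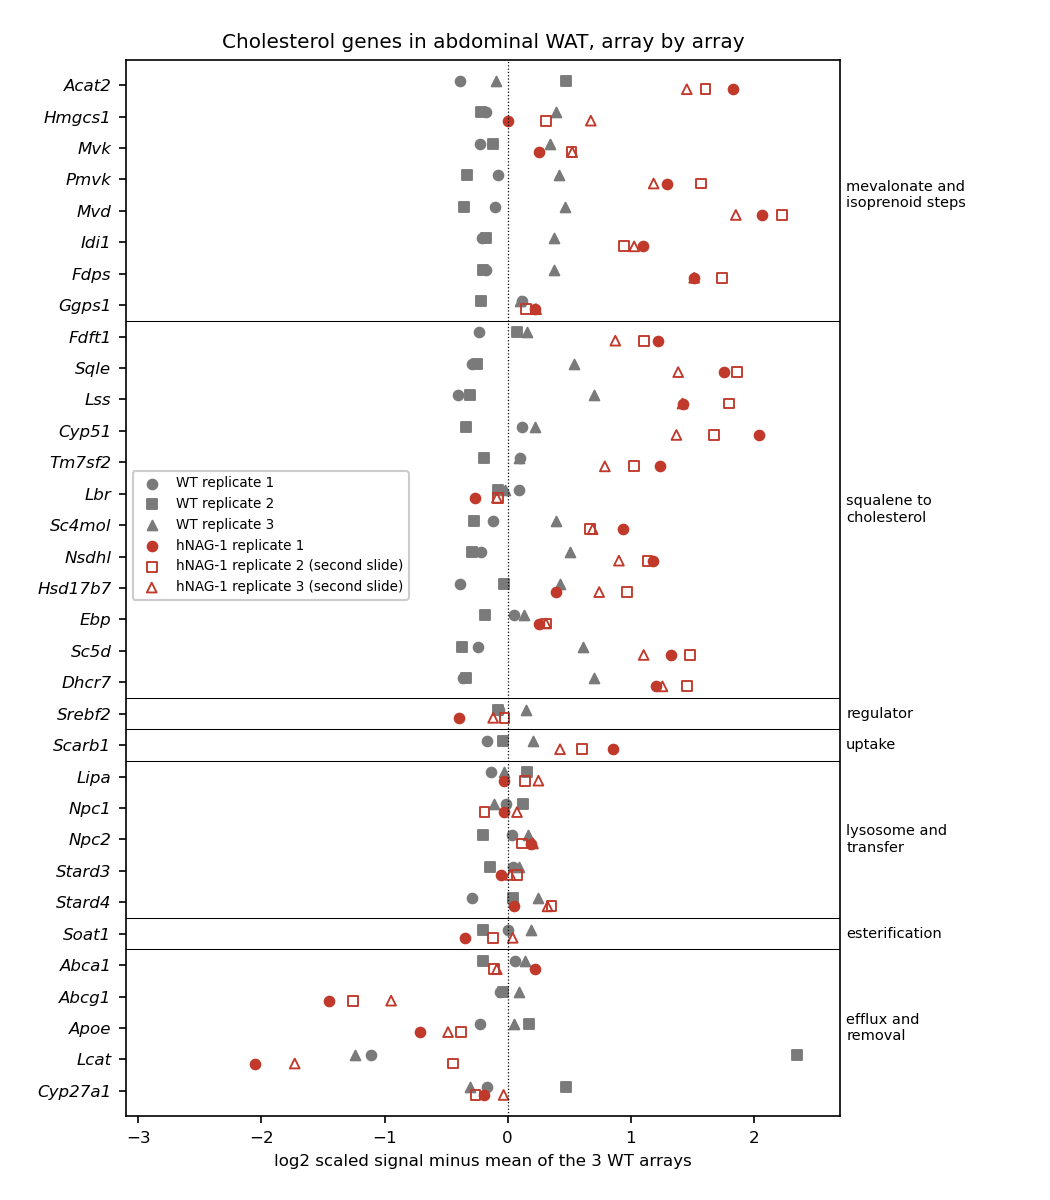
Level of each of the 33 genes on each of the 6 arrays, by role. The horizontal axis is the log2 scaled signal minus the mean of the 3 WT arrays of that gene, grey symbols are WT and red symbols hNAG-1 replicates, and open symbols mark the arrays of the second slide. Red symbols stand to the right of all grey ones for 16 of the 20 synthesis genes and for Scarb1, and to the left for Lbr, Abcg1 and Apoe.

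All 3 WT arrays and hNAG-1 replicate 1 were hybridised on 1 slide, and the 2 other hNAG-1 pools on another that was scanned separately, so part of the genotype difference cannot be told apart from slide. The comparison of hNAG-1 replicate 1 with the WT arrays of its own slide is therefore given beside the results. That comparison has a single hNAG-1 array, so its p-values take their spread from the 3 WT arrays alone and assume that the transgenic array varies like them. On that slide 13 of the 33 genes were higher, against 2.71% of all genes, and 2 were lower, against 3.49%. The median log2 fold change there was 1.21 for the synthesis genes and -0.045 for the uptake, trafficking and efflux genes, where that of all genes was -0.029. Normexp background correction moved the median of all genes from 0.063 to -0.19. After it the synthesis genes had a median of 1.20 and the uptake, trafficking and efflux genes one of 0.026. Relative to the median of all genes these were 1.40 and 0.22. Before scaling, the 75th percentile of the processed signal was 858.2 to 969.6 on the 4 arrays of the shared slide and 711.9 and 628.8 on the 2 arrays of the other slide, which were the dimmest. Between 70.8% and 81.6% of probes were well above background, and pairs of arrays correlated at 0.965 to 0.988 over all genes.

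Of the 8 genes of the mevalonate and isoprenoid steps, 5 were higher in hNAG-1 mice. Acat2, the cytosolic thiolase that joins acetyl-CoA units at the first step, was at -0.14, 0.73 and 0.16 in WT replicates 1 to 3 and at 2.07, 1.85 and 1.70 in hNAG-1 replicates 1 to 3. The lowest hNAG-1 array was above the highest WT array, WT replicate 2, and the difference was 3.09-fold (log2 1.63, SE 0.25, adjusted p = 0.176). The next genes phosphorylate and decarboxylate mevalonate. Pmvk, phosphomevalonate kinase, was at 4.08, 3.83 and 4.58 in the WT arrays and at 5.46, 5.74 and 5.35 in the hNAG-1 arrays. It was 2.55-fold higher (log2 1.35, SE 0.23, adjusted p = 0.184), and its second probe gave a log2 difference of 1.41.

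Mvd, the decarboxylase that ends the mevalonate steps, had the largest fold change of the 33 genes. It was at -0.50, -0.75 and 0.071 in the WT arrays and at 1.67, 1.84 and 1.46 in the hNAG-1 arrays, a 4.13-fold difference (log2 2.05, SE 0.24, adjusted p = 0.167). The gap between the lowest hNAG-1 and the highest WT array was wider than the spread within either group, and the array of the shared slide alone gave 2.06. Its only probe was placed at chr8:121075855-121075914 by the array's design on mouse build mm7. Idi1, the isomerase of isopentenyl pyrophosphate, was at 2.13, 2.16 and 2.71 in the WT arrays and at 3.43, 3.28 and 3.36 in the hNAG-1 arrays. The hNAG-1 arrays were close together and all above WT replicate 3, the highest WT array, with a 2.03-fold difference (log2 1.02, SE 0.19, adjusted p = 0.191). Both Idi1 probes were placed by the array's design on chromosome 2, while the RefSeq gene is on chromosome 13, and their log2 differences were 1.02 and 1.00. Fdps, farnesyl pyrophosphate synthase, was at 1.76, 1.73 and 2.31 in the WT arrays and at 3.44, 3.68 and 3.45 in the hNAG-1 arrays. It was 3.01-fold higher (log2 1.59, SE 0.19, adjusted p = 0.168). A second, dimmer Fdps probe gave a log2 difference of only 0.29, so the size of the Fdps difference depends on the probe.

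The remaining genes of these steps did not pass the threshold. Hmgcs1 was at 4.86, 4.82 and 5.43 in the WT arrays and at 5.04, 5.35 and 5.71 in the hNAG-1 arrays, with overlapping groups. Its log2 difference was 0.33, with a 95% interval from -0.28 to 0.94 (adjusted p = 0.614), and was 0.0037 on the shared slide. The other Hmgcs1 probes gave 0.20 and -0.25, on both sides of 0. Mvk, mevalonate kinase, had a log2 difference of 0.43 with a 95% interval from -0.032 to 0.90 (adjusted p = 0.418), and its second probe gave 0.39. Ggps1 makes geranylgeranyl pyrophosphate, a branch that leaves the route to cholesterol. It was at 0.15, -0.17 and 0.14 in the WT arrays and at 0.26, 0.19 and 0.27 in the hNAG-1 arrays, groups that did not overlap but lay close together (log2 0.20, SE 0.13, adjusted p = 0.563).

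Of the 12 genes from squalene to cholesterol, 10 were higher in hNAG-1 mice. Fdft1, squalene synthase and the first enzyme committed to sterols, was at 1.01, 1.32 and 1.41 in the WT arrays and at 2.47, 2.35 and 2.12 in the hNAG-1 arrays. It was 2.09-fold higher (log2 1.07, SE 0.16, adjusted p = 0.176), and a second, dimmer probe gave 0.72. Sqle, squalene epoxidase, an oxygen-using step of the pathway, was at 0.037, 0.082 and 0.86 in the WT arrays and at 2.09, 2.19 and 1.71 in the hNAG-1 arrays. WT replicate 3 was the highest WT array and hNAG-1 replicate 3 the lowest hNAG-1 array, and they did not overlap. The Sqle difference was 3.18-fold (log2 1.67, SE 0.27, adjusted p = 0.182).

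Lss, lanosterol synthase, closes the sterol rings. Lss was at 0.25, 0.35 and 1.36 in the WT arrays and at 2.08, 2.45 and 2.08 in the hNAG-1 arrays, a 2.92-fold difference (log2 1.55, SE 0.33, adjusted p = 0.218). WT replicate 3 stood 1.01 above the next WT array, and on the shared slide the difference was 1.43, which missed the threshold. The other Lss probes gave larger differences, 1.95 and 1.91. Cyp51, the lanosterol demethylase, was at -0.72, -1.18 and -0.62 in the WT arrays and at 1.20, 0.84 and 0.53 in the hNAG-1 arrays. It was 3.24-fold higher (log2 1.70, SE 0.24, adjusted p = 0.176), by more on the shared slide (2.04), and its other probes gave 1.52 and 1.49.

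Tm7sf2 and Lbr encode sterol reductases that can act on the same intermediate. Tm7sf2 was at 2.08, 1.79 and 2.07 in the WT arrays and at 3.22, 3.01 and 2.77 in the hNAG-1 arrays, and was 2.03-fold higher (log2 1.02, SE 0.16, adjusted p = 0.182). Lbr, which is also a protein of the nuclear membrane, was at 0.76, 0.59 and 0.65 in the WT arrays and at 0.40, 0.59 and 0.58 in the hNAG-1 arrays. The hNAG-1 arrays of Lbr lay below the WT arrays by a narrow margin, and the log2 difference of -0.14 (95% interval -0.43 to 0.14, adjusted p = 0.632) did not pass the threshold. After normexp it was -0.11, or 0.08 relative to the median of all genes.

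Sc4mol (Msmo1 in RefSeq), Nsdhl and Hsd17b7 together remove methyl groups from the sterol. Sc4mol, the oxidase, was at 2.37, 2.22 and 2.88 in the WT arrays and at 3.43, 3.16 and 3.18 in the hNAG-1 arrays, a 1.7-fold difference (log2 0.77, SE 0.21, adjusted p = 0.274). Nsdhl, the dehydrogenase, was at 0.75, 0.68 and 1.48 in the WT arrays and at 2.15, 2.11 and 1.87 in the hNAG-1 arrays. It was 2.11-fold higher (log2 1.07, SE 0.24, adjusted p = 0.229). Of its other probes, 2 gave 1.21 and 1.16 and 1 gave 0.33. Hsd17b7, the keto reductase, was at -1.07, -0.71 and -0.26 in the WT arrays and at -0.29, 0.29 and 0.061 in the hNAG-1 arrays. hNAG-1 replicate 1 fell within the WT range, just below WT replicate 3. Hsd17b7 had the largest p of the genes counted as higher (log2 0.70, SE 0.26, adjusted p = 0.367). On the shared slide its log2 difference was 0.40. It missed the threshold after normexp (0.52, or 0.71 relative to the median of all genes). It also missed it when any array but WT replicate 3 or hNAG-1 replicate 1 was left out, where it was 0.51 to 0.69.

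The last steps move and reduce the sterol double bonds. Ebp, the sterol isomerase, was at 4.82, 4.59 and 4.90 in the WT arrays and at 5.02, 5.08 and 5.08 in the hNAG-1 arrays, groups that did not overlap (log2 0.29, SE 0.12, adjusted p = 0.408). Sc5d, the desaturase, was at 3.22, 3.09 and 4.07 in the WT arrays and at 4.78, 4.94 and 4.56 in the hNAG-1 arrays. It was 2.47-fold higher (log2 1.30, SE 0.29, adjusted p = 0.229). Dhcr7, the reductase that gives cholesterol from its immediate precursor and competes with vitamin D synthesis for it, was at 1.59, 1.61 and 2.65 in the WT arrays and at 3.16, 3.40 and 3.21 in the hNAG-1 arrays. WT replicate 3 stood 1.04 above the next WT array, and the difference was 2.47-fold (log2 1.31, SE 0.31, adjusted p = 0.241). On the shared slide the log2 difference of Dhcr7 was 1.21, which missed the threshold.

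WT replicate 3 was the highest WT array for 16 of the 20 synthesis genes and for 13 of the 15 counted as higher, and hNAG-1 replicate 3 was the lowest hNAG-1 array for 10 of those 15. Set against the WT mean, the median of the synthesis genes was -0.19 in WT replicate 1, -0.21 in WT replicate 2 and 0.39 in WT replicate 3, and 1.21, 1.12 and 0.97 in hNAG-1 replicates 1 to 3. This median thus varied between WT pools by less than it differed between genotypes. That did not hold for Hsd17b7, Hmgcs1, Mvk, Ggps1, Ebp and Lbr, whose WT arrays spanned more than the size of their log2 fold change. The span was 0.81 for Hsd17b7 and 0.61 for Hmgcs1, for example, against log2 fold changes of 0.70 and 0.33. Without WT replicate 3 the median log2 fold change of the synthesis genes was 1.27, the highest value with any array left out. The lowest was 1.01, without hNAG-1 replicate 1.

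Srebf2, the regulator of this pathway, was at 2.77, 2.76 and 2.99 in the WT arrays and at 2.45, 2.82 and 2.72 in the hNAG-1 arrays, with overlapping groups. Its log2 difference was -0.18 (95% interval -0.54 to 0.18, adjusted p = 0.64). The Srebf2 probes disagreed. The second probe gave 0.53, past the threshold in a fit over probes, the third gave 0.05, and their mean with the main probe gave 0.13, so no direction is given for Srebf2. The array measures its mRNA and not the cleavage that activates the protein.

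Scarb1, the HDL receptor SR-BI that takes cholesteryl ester from HDL and can also pass cholesterol to it, was the gene of uptake in the set. It was at 2.19, 2.33 and 2.57 in the WT arrays and at 3.22, 2.97 and 2.79 in the hNAG-1 arrays. All hNAG-1 arrays were above all WT arrays, and the difference was 1.55-fold (log2 0.63, SE 0.17, adjusted p = 0.272). On the shared slide the log2 difference was 0.86. The probe was placed at chr5:124511540-124511599 on mm7.

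The 5 genes that free cholesterol in the lysosome or carry it between membranes were close to the WT level, and 0 of them passed the threshold in either direction. The log2 differences were 0.12 for Lipa, lysosomal acid lipase, -0.048 for Npc1 and 0.17 for Npc2, which hand cholesterol out of the lysosome, 0.014 for Stard3 at the late endosome and 0.24 for Stard4 in the cytosol. Their 95% intervals reached from -0.36 at the lowest (Npc1) to 0.69 at the highest (Stard4). The sign of Lipa, Npc1 and Stard3 changed between settings. Soat1 esterifies cholesterol for storage. Its main probe was at 0.57, 0.37 and 0.76 in the WT arrays and at 0.22, 0.45 and 0.61 in the hNAG-1 arrays, which overlapped (log2 -0.14, 95% interval -0.54 to 0.26, adjusted p = 0.742). That probe was placed on chromosome 7 by the array's design, while the other 3 Soat1 probes, placed together on chromosome 1, gave -0.26, -0.54 and -0.40, and the mean of all 4 gave -0.33, which passed the threshold.

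The efflux genes did not move together. Abcg1, the transporter that passes cholesterol to HDL, was at 1.27, 1.30 and 1.42 in the WT arrays and at -0.12, 0.075 and 0.38 in the hNAG-1 arrays. The WT arrays lay within 0.16 of each other and all hNAG-1 arrays were below them, a 2.33-fold lower level (log2 -1.22, SE 0.16, adjusted p = 0.176). The difference was -1.45 on the shared slide and -0.80 relative to the median of all genes after normexp. The Abcg1 probe was placed at chr17:29310847-29310906 on mm7. Abca1, which loads cholesterol onto lipid-poor apolipoprotein A-I and answers to LXR as Abcg1 does, was at 3.34, 3.08 and 3.42 in the WT arrays and at 3.50, 3.17 and 3.19 in the hNAG-1 arrays. The groups overlapped throughout and the log2 difference was 0.007, with a 95% interval from -0.38 to 0.39 (adjusted p = 0.988).

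Apoe, the apolipoprotein that fat cells and macrophages secrete and that accepts cholesterol, was at 7.44, 7.84 and 7.71 in the WT arrays and at 6.95, 7.28 and 7.18 in the hNAG-1 arrays. All hNAG-1 arrays were below all WT arrays, a 1.44-fold lower level (log2 -0.53, SE 0.16, adjusted p = 0.306). Apoe missed the threshold after normexp (-0.34, or -0.14 relative to the median of all genes). It also missed it, narrowly, without WT replicate 2 (-0.44) or without hNAG-1 replicate 1 (-0.43). Cyp27a1, the hydroxylase that makes oxysterols for export, had a log2 difference of -0.16 (95% interval -0.73 to 0.40), and WT replicate 2 was its highest array at 0.07.

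Macrophages also express Abcg1 and Apoe, so macrophage markers were read on the same arrays. All 16 markers were well above background on all 6 arrays, 14 had log2 differences below 0, where 41.1% of all genes had, and 4 were lower at an unadjusted p below 0.05, where 4.08% of all genes were. For 7 of the 16 all hNAG-1 arrays lay below all WT arrays, against 6.57% of all genes. Their median log2 difference was -0.28 as scaled here and -0.16 after normexp, but 0.031 relative to the median of all genes after normexp. The scavenger receptor Cd163 was at -0.84, Itgam at -0.37 and Cd68 at -0.44, while Lyz2, an abundant lysozyme of these cells, was at -0.052. The summed scaled level of the 16 markers was 171 to 212 in the WT arrays and 174 to 178 in the hNAG-1 arrays, ranges that overlapped. Lyz2 contributed most of the signal to this sum, and without it the sum was 71.8 to 91.8 in the WT arrays and 62.8 to 65.9 in the hNAG-1 arrays, which did not overlap. In bulk tissue fewer cells of a type and less RNA per cell cannot be told apart, and the part of macrophages in the Abcg1 and Apoe differences was not tested. All 9 adipocyte markers were well above background on all arrays, with log2 differences from 0.042 to 0.75. Their median was 0.30 as scaled here, 0.54 after normexp and 0.73 relative to the median of all genes after normexp. Slc2a4 (0.75) and Fabp4 (0.39) were the 2 of the 9 that were higher at an unadjusted p below 0.05, against 8.46% of all genes. Cfd, the marker with the next smallest p, was at 0.30 (adjusted p = 0.451). On the shared slide the median of the 9 adipocyte markers was 0.16. The part of adipocyte share in the synthesis genes was not tested.

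Lcat, the plasma enzyme that esterifies cholesterol on HDL and is made mainly by the liver, was at -4.45, -0.99 and -4.58 in the WT arrays and at -5.39, -3.78 and -5.07 in the hNAG-1 arrays. WT replicate 2 stood apart, and the log2 difference of -1.41 had a 95% interval from -4.03 to 1.21 (adjusted p = 0.614). Without WT replicate 2 it was -0.23. Liver markers had the same high array: their summed scaled level was 6.28, 179 and 15.7 in WT replicates 1 to 3 and 1.51, 42.3 and 2.34 in hNAG-1 replicates 1 to 3. Albumin (Alb) was at 2.43, 7.24 and 3.76 in the WT arrays and at 0.46, 5.21 and 1.03 in the hNAG-1 arrays. Of 5 liver markers, 0 passed the threshold, and the smallest p-values were those of Apoa2 (-3.03, adjusted p = 0.56), Cps1 (-2.87, adjusted p = 0.585) and Ttr (-2.18, adjusted p = 0.593). The summed level of the 4 measured markers of the pancreas was also highest in WT replicate 2, at 9.08 against 0.957 to 1.69 in the other arrays. Apoe, too, was highest in replicate 2 within each genotype, at 7.84 in WT and 7.28 in hNAG-1. The part of other tissues in the Lcat and Apoe values was not tested. Dropping the replicate 2 array of either genotype took only Hsd17b7 from the synthesis genes counted as higher. Dropping WT replicate 1 or hNAG-1 replicate 3 did the same, so this was not particular to the replicate 2 arrays. Each of these fits also kept other arrays with albumin signal, so they cannot show what other tissues contributed. The part of other tissues in the synthesis genes was not tested.

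**Figure D3:**
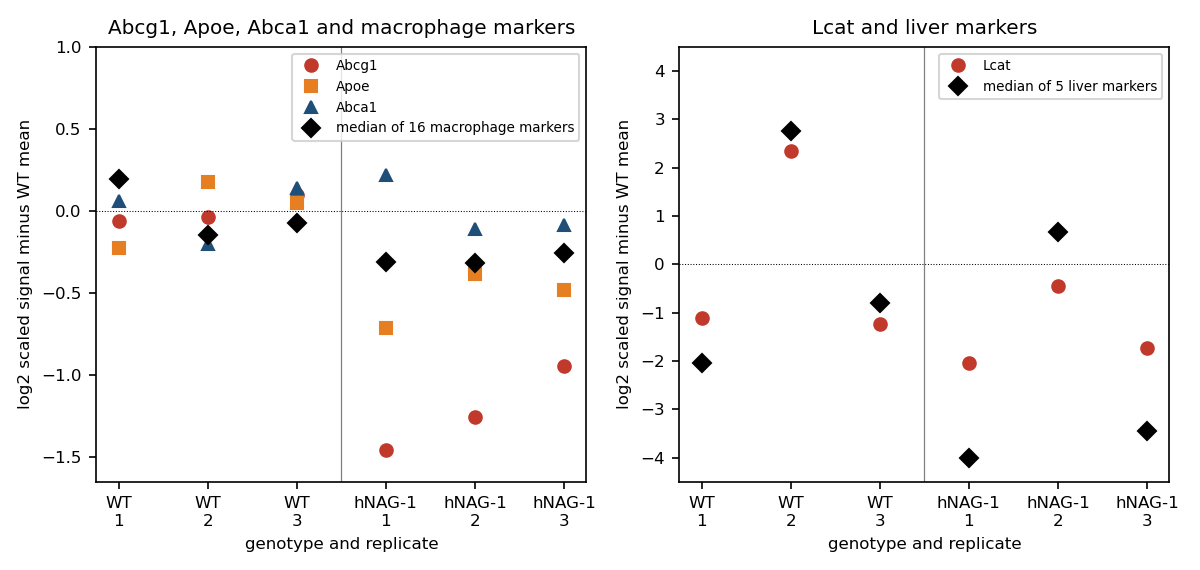
Level by array of Abcg1 (red circles), Apoe (orange squares), Abca1 (blue triangles) and the median of the 16 macrophage markers (black diamonds) on the left, and of Lcat (red circles) and the median of the 5 liver markers (black diamonds) on the right. The vertical axes give the log2 scaled signal minus the WT mean and have different ranges, and the grey line parts WT from hNAG-1 arrays. Abcg1 fell to between -1.45 and -0.95 in the hNAG-1 arrays while the macrophage median lay between -0.32 and -0.26, and Lcat and the liver median were both highest in WT replicate 2.

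Ovary and adrenal also make cholesterol and lie near abdominal fat. Of 10 steroidogenic markers, 7 were measured, and 3 gave no value: Hsd3b1 and Cyp19a1 were well above background on 1 array at most, and Cyp11b1 had no probe of that name. The summed scaled level of the 7 was 0.624 to 1.01 in the WT arrays and 0.649 to 0.944 in the hNAG-1 arrays, ranges that overlapped, and 0 of the 7 passed the threshold. The median log2 differences of the other marker lists were -0.12 (endothelial), -0.31 (fibroblast), -0.18 (mesothelial), 0.19 (skeletal muscle) and 0.48 (lymphocyte).

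Among 42 further genes of cholesterol handling, outside the set, 40 were measured, 3 were higher and 3 were lower at an unadjusted p below 0.05. These counts are near the shares of all genes (8.46% higher and 4.08% lower), so the 6 genes are described singly and not as a result about the list. Insig1, which holds SREBP in the endoplasmic reticulum and is itself a sterol-regulated gene, was at 0.51, 0.43 and 1.45 in the WT arrays and at 2.81, 2.78 and 2.04 in the hNAG-1 arrays. It was 3.36-fold higher (log2 1.75, SE 0.36, adjusted p = 0.21), and its second probe gave 1.66. Aacs, which activates ketone bodies for lipid synthesis, was 2.63-fold higher (log2 1.40, SE 0.25, adjusted p = 0.191). Stard5, a cytosolic carrier, had a small difference (0.32, adjusted p = 0.369) that its second probe, at -0.018, did not share.

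Abcg4, a transporter close to Abcg1, was lower (-0.97, SE 0.19, adjusted p = 0.208), as were Nceh1, a cholesteryl ester hydrolase (-0.44, adjusted p = 0.322), and Pltp, which moves phospholipid between lipoproteins (-0.42, adjusted p = 0.313). After normexp they were at -0.78, -0.31 and -0.31, or -0.58, -0.11 and -0.11 relative to the median of all genes. Soat2 and Npc1l1 gave no value, being well above background on 2 arrays and 1 array at most.

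Fatty acid synthesis starts from the same acetyl-CoA and answers to the related factor SREBP-1. Of 15 genes of fatty acid synthesis, 15 were higher in hNAG-1 mice at an unadjusted p below 0.05, against 8.46% of all genes. Their median log2 fold change was 1.48, in a range from 0.39 to 2.13, and the median was 1.47 on the shared slide. After normexp 12 of the 15 were higher, where 324 of all genes were. The smallest p-values were those of Acaca, acetyl-CoA carboxylase (1.50, adjusted p = 0.167), Acly, ATP citrate lyase (1.96, adjusted p = 0.167), and the sugar-responsive factor Mlxipl (1.25, adjusted p = 0.167). These values are set beside those of the cholesterol genes from the same arrays, and whether the lists differ was not tested.

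**Figure D4:**
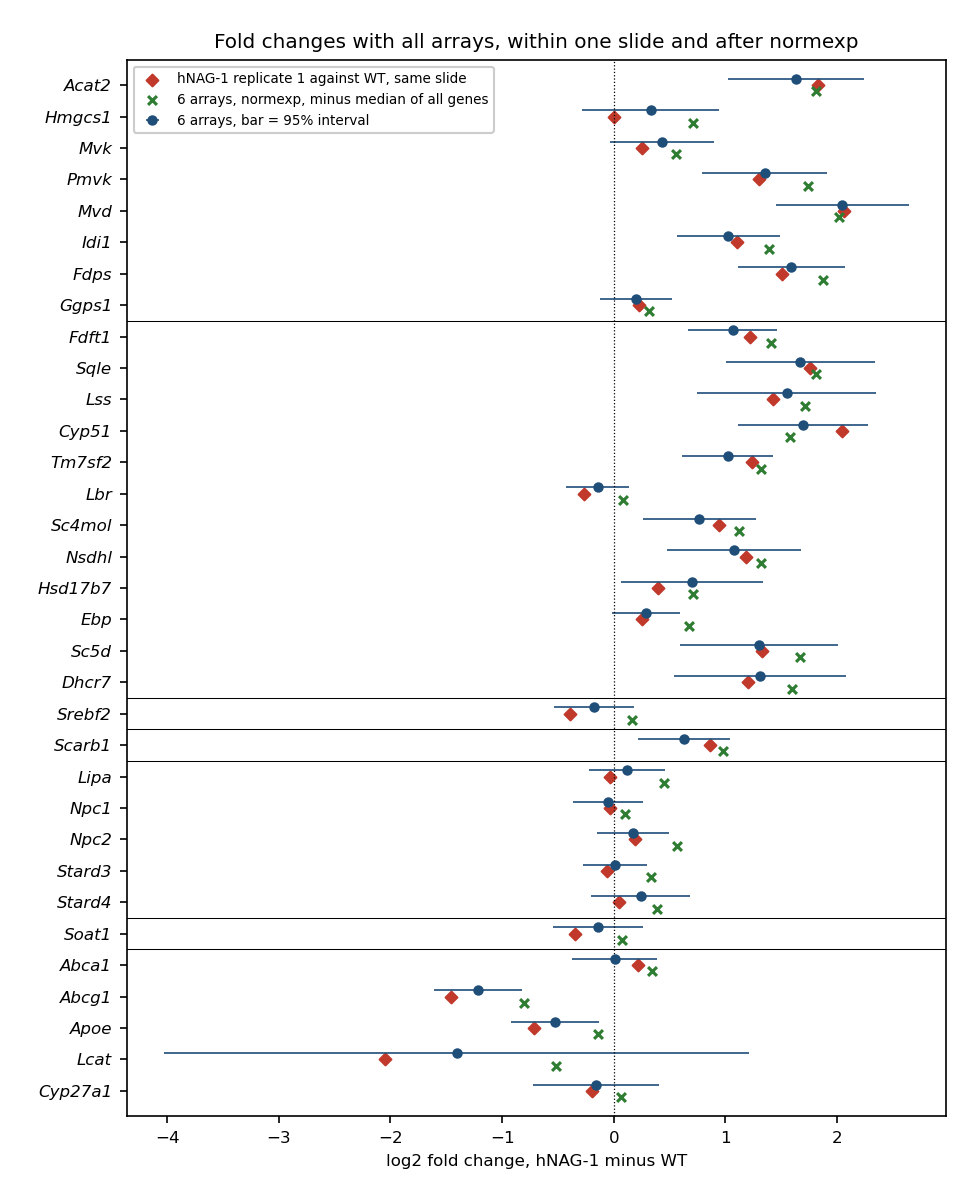
Log2 fold change, hNAG-1 minus WT (horizontal axis), of the 33 genes by role: with all 6 arrays (blue circles, bars are 95% intervals), for hNAG-1 replicate 1 against the 3 WT arrays of the same slide (red diamonds), and after normexp background correction minus the median of all genes (green crosses). Most synthesis genes lie to the right of 0 in all 3, Abcg1 lies to the left in all 3, and Hmgcs1 is at 0.0037 on the shared slide.

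Probes of the same gene mostly agreed where a difference was found. The 33 genes had 62 probes on the array, of which 60 were kept, and 17 genes had several kept probes. Of the 18 genes counted as higher or lower, 10 had several kept probes. In these 10 all probes had the same sign, and in 8 of them every probe was below 0.05 in a fit over probes, the exceptions being Fdps and Nsdhl. Probes of both signs were found for Hmgcs1, Lipa and Srebf2. The array's design placed 6 of the 60 kept probes on another chromosome than the RefSeq table does for their gene: both Idi1 probes on chromosome 2 (RefSeq 13), the brightest Soat1 probe on chromosome 7 (RefSeq 1), and the 3 Hmgcs1 probes on unplaced sequence (RefSeq 13). These probes were named by the symbol in the files, and which transcript they measure was not tested. The part of the transcript each probe covers was not analysed here, since no annotation of build mm7 was used.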

How the data were processed

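RNA from abdominal WAT of 30 wk female mice was measured on 6 single-colour (Cy3) Agilent arrays, 3 pools of 2 mice per genotype. Per the file headers and labels, the authors' scanner files hold spot intensities from Agilent Feature Extraction 9.5, background-subtracted and detrended within each array and not scaled between arrays. The deposited value table of the series holds the same processed intensities, equal on all 45018 rows. The study's methods name another array type; the deposited files were read as what they are. Probes were named through accessions (22902), symbols (6709) or synonyms (3108) of the RefSeq table, and 8455 kept the file's name. Groups were taken from the labels. The 33 members, the other lists and the tests were chosen with earlier results of these data known. Some items of the lists are not reported here and were left out of the counts.

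Control spots (1639) and outlier-flagged spots were dropped, replicate spots were averaged per probe, and the log2 of the processed intensity was centred on each array's 75th percentile, which was 628.8 to 969.6. Probes were kept if Feature Extraction called them well above background on 3 or more of the 6 arrays, and a gene was read from its brightest kept probe. Genotype was tested with limma 3.58.1 (R 4.3.3, lmFit and eBayes), with Benjamini-Hochberg adjustment over 21057 genes, and 95% intervals use the moderated standard error. The script was tested on simulated data. By rule, genes of the set given array by array were those with an unadjusted p below 0.05 or with groups that do not overlap. Hmgcs1, Srebf2, Soat1, Abca1 and Lcat were added after their values were seen. Other genes of the set were described by role, the other lists by their counts with up to 3 genes of smallest p each, and members of the other lists given beyond this were chosen after their values were seen. Motifs were searched on both strands with Python 3.11.15, and figures were drawn with matplotlib 3.10.9. As alternatives, arrays were quantile-normalized or corrected by normexp (offset 50), the filter was tightened or dropped, probes of a gene were averaged, the value table was used, the variance was modelled as trended and robust, slide or replicate number entered as a block, and the shared slide alone or all arrays but 1 were fitted. Only 3 arrays per genotype limit the precision. The p-values rest on the spread between pools, moderated over all genes, and in the hNAG-1 group that spread also holds the difference between slides.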

Additional observations from a re-analysis of the deposited data

How the results depend on the processing

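The 15 synthesis genes counted as higher, Scarb1, Abcg1 and Apoe kept their sign under all 16 alternatives, and 14 of these 18 genes also kept an unadjusted p below 0.05 under each; the exceptions were Lss, Hsd17b7, Dhcr7 and Apoe, as given in the report. The number of cholesterol genes counted as higher was 13 to 18 (16 in the report), and with each array left out 15 to 18. The number counted as lower was 1 after normexp, and 1 to 2 with each array left out. The trended and robust variance model gave 10 cholesterol genes, and 130 genes in all, below an adjusted p of 0.05, where the other alternatives gave 0. Over all genes, normexp gave 324 higher and 112 lower, slide as a fixed block gave 825 higher, the shared slide gave 571 higher, and leaving out each array gave 960 to 2379 higher and 529 to 1242 lower. Among the other cholesterol genes, 5 were higher with the trended model and 2 to 5 with an array left out, and lower ones numbered 0 after normexp, 1 with slide as a fixed block, 1 on the shared slide and 2 to 4 with an array left out. The cause of these changes was not tested, except that the shared slide holds fewer arrays.

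Signs changed only for genes that missed the threshold. With probes of a gene averaged, Srebf2 was at 0.13 and Lipa at -0.24. With slide as a fixed block, and equally on the shared slide, Lipa was at -0.033 and Stard3 at -0.057. With quantile normalization Stard3 was at -0.030 and Abca1 at -0.070. With each array left out Npc1 ranged from -0.11 to 0.022, Stard3 from -0.056 to 0.062, Abca1 from -0.099 to 0.077 and Cyp27a1 from -0.315 to 0.076. The replicate numbers were checked for pairing: deviations of same-numbered arrays correlated at 0.098, 0.512 and 0.095, so the numbers were not taken to pair the pools. With the replicate block 16 cholesterol genes were higher and 3 lower, Lcat being the added gene (-1.41), and over all genes 1492 were higher and 923 lower.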
